A study of Mus musculus with 12 samples.

Results

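Genes of glycolysis and pyruvate metabolism were followed in mouse embryonic stem (ES) cells given an inhibitor of the kinase MEK. The 33 genes were chosen by symbol for their place in glucose uptake, glycolysis, lactate and pyruvate handling and the entry of the pentose phosphate pathway, out of 26742 genes in the count table. All 33 were found, and all 33 were among the 16627 genes that passed the filter on low counts. The RNA came from 4 groups of 3 libraries each, 12 in all: B6J cells with the inhibitor, B6J cells with DMSO, 129 cells with the inhibitor and 129 cells with DMSO. The inhibitor, PD 0325901 (labelled iMEK), blocks the kinase that activates ERK and was given at 1 µM each day until day 5, while the control cells received its solvent DMSO. All cells were labelled as male ES cells and grew in KO-DMEM medium with serum and LIF, the cytokine that supports ES cell self-renewal. B6J is taken to mean C57BL/6J. Since no clone is named, background and cell line cannot be told apart. Separate cultures are not stated for the replicates either, and p-values therefore reflect the spread between libraries alone, which could be technical.

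Levels are given as CPM (each count relative to its library's total, with edgeR's TMM scaling), and levels of different genes are compared only as CPM per kb of exon. Changes are log2 fold changes with their standard error (SE), inhibitor over DMSO unless stated otherwise. An adjusted p is from edgeR's quasi-likelihood test with Benjamini-Hochberg adjustment over all 16627 genes, and a gene was called higher or lower where it was under 0.05. Library totals ranged from 62634533 to 96341637 counts. The ERK target Egr1 averaged 9.84 ± 1.37 CPM in B6J iMEK libraries and 149 ± 7.78 CPM in B6J DMSO libraries, and 8.19 ± 1.87 CPM in 129 iMEK libraries and 261 ± 63.02 CPM in 129 DMSO libraries (SD, n = 3 each). All 10 ES cell markers were detected in every library, with a summed level of 4921 to 5783 CPM in iMEK libraries and 2932 to 4003 CPM in DMSO libraries. Markers of other cells moved with the treatment too. The 20 fibroblast (feeder cell) markers, none of them at 0, summed to 6549 to 10715 CPM in B6J iMEK libraries against 4342 to 5169 CPM in B6J DMSO libraries, and to 7053 to 11158 CPM in 129 iMEK libraries against 2930.4 to 5879 CPM in 129 DMSO libraries. In 129, 14 of the 20 were called higher and 1 lower, and in B6J 11 were called higher and 0 lower. The 129 DMSO library of replicate 1 stood apart, with 13028 CPM of primitive endoderm markers against 1632 and 1649 CPM in the other 129 DMSO libraries. Mesoderm and primitive streak markers, 14 in the table, summed to 12.7 to 15.1 CPM in B6J iMEK libraries against 47.5 to 82.7 CPM in B6J DMSO libraries, and to 13.5 to 23.6 CPM in 129 iMEK libraries against 196 to 291 CPM in 129 DMSO libraries. Of the 13 tested, 1 was higher and 7 lower in B6J, and 2 were higher and 9 lower in 129. The 10 trophoblast markers summed to 127 to 132 CPM in B6J iMEK libraries against 422 to 550.2 CPM in B6J DMSO libraries, and to 112 to 122 CPM in 129 iMEK libraries against 279.96 to 758 CPM in 129 DMSO libraries. Single trophoblast markers went both ways: of the 9 tested, 2 were higher and 5 lower in B6J, and 4 were higher and 5 lower in 129. The 17 primitive endoderm markers summed to 2908 to 4257 CPM in B6J iMEK libraries against 2167.5 to 2296.5 CPM in B6J DMSO libraries, though of the 16 tested 0 were called higher and 1 lower. In 129 they summed to 2866 to 4532 CPM in iMEK libraries, between DMSO replicate 1 and the other DMSO libraries, and 0 were called higher and 8 lower. Pdgfra is on this list and on the fibroblast list, and in each group both sums ranked the replicates alike. The endoderm sum thus cannot be read apart from the fibroblast sum. The 12 neuroectoderm markers summed to 301 to 347 CPM in B6J iMEK libraries against 335 to 342 CPM in B6J DMSO libraries, and to 232 to 257 CPM in 129 iMEK libraries against 325 to 339 CPM in 129 DMSO libraries. Of the 11 tested, 2 were higher and 2 lower in each background. No marker of these lists was at 0 in every library. The part of these other cells in the results below was not tested. For the 33 genes, a fit with the mean log2 level of the fibroblast markers as a covariate and a fit without 129 DMSO replicate 1 are given where they change a call or move a called value by more than 1.5 times. The covariate moved with the treatment. It was 5.96 to 6.56 in B6J iMEK libraries against 5.35 to 5.69 in B6J DMSO libraries. In 129 it was 6.01 to 6.67 in iMEK libraries against 4.805 to 5.96 in DMSO libraries. The fit with it thus cannot part the inhibitor from the fibroblast level. A changed value or call there does not show what these cells contribute.

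Glycolysis splits glucose into pyruvate in the cytosol. Glucose enters through GLUT transporters, hexokinase traps it as a phosphate, phosphofructokinase commits it to the pathway, and the steps from aldolase to pyruvate kinase yield ATP. Pyruvate is then reduced to lactate by lactate dehydrogenase and exported by monocarboxylate transporters, or enters mitochondria, where the pyruvate dehydrogenase complex turns it into acetyl-CoA. Pyruvate dehydrogenase kinases switch that complex off by phosphorylation. Several steps have isozymes with different kinetics and regulation, and glycolytic flux is known to be high in pluripotent cells. HIF and MYC are known as transcription factors of many of these genes. The letters ACGTG are among those that both families of factors bind, and sites without ACGTG were not searched for.

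The start-site sequences of the genes that moved in the same direction in both backgrounds show how unevenly those letters are spread. The windows run from 250 bases before to 50 bases after the annotated start (RefSeq, GRCm38.p6) and are printed 5′ to 3′ on the gene's strand, with ACGTG on either strand in capitals. The windows shown belong to genes on which the results turn: 5 genes that were lower with the inhibitor in both backgrounds (Slc2a1, Slc16a1, Slc16a3, Ldha, Pdk1) and 2 that were higher in both (Hk1, Ldhb). They lie at chr4:119108495-119108794, plus strand (Slc2a1), chr3:104638414-104638713, plus strand (Slc16a1), chr11:120948817-120949116, plus strand (Slc16a3), chr7:46845554-46845853, plus strand (Ldha), chr2:71872974-71873273, plus strand (Pdk1), chr10:62379859-62380158, minus strand (Hk1), and chr6:142507908-142508207, minus strand (Ldhb).
Slc2a1: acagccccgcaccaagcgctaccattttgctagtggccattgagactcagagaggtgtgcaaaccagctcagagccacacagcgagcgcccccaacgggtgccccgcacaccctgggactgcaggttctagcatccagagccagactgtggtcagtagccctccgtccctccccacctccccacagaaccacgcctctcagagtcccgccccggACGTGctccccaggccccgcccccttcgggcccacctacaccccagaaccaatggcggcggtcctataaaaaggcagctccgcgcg
Slc16a1: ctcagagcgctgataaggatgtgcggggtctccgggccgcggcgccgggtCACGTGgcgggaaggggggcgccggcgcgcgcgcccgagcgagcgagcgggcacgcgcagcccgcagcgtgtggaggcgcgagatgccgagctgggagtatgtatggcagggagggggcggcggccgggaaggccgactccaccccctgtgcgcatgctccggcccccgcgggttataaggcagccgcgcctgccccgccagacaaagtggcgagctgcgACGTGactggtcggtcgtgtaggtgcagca
Slc16a3: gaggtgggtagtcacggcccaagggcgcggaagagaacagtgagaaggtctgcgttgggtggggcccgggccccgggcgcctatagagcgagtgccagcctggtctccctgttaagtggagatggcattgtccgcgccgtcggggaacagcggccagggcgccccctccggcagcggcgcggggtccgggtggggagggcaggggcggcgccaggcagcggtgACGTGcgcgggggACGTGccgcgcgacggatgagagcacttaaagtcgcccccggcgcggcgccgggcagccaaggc
Ldha: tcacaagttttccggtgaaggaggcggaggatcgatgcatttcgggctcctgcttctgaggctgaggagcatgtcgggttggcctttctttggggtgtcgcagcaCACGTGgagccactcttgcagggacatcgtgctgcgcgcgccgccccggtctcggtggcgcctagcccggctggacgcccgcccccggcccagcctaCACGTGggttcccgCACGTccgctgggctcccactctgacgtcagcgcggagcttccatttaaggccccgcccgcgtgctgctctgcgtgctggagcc
Pdk1: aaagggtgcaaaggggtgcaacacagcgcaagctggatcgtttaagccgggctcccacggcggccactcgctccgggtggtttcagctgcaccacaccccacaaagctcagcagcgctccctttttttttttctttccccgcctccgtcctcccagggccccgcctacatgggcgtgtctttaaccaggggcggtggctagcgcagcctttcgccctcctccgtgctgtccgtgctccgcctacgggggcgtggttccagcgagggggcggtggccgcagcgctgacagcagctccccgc
Hk1: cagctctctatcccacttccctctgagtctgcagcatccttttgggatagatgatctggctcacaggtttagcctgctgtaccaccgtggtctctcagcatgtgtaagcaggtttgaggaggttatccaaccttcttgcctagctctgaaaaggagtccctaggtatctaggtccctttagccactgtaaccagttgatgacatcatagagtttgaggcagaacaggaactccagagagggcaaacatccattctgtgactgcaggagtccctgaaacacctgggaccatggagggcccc
Ldhb: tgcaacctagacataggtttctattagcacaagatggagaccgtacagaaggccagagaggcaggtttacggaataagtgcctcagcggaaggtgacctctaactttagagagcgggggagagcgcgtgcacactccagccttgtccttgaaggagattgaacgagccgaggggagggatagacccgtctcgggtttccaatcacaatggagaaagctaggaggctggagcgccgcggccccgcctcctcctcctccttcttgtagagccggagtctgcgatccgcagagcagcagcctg
The Slc2a1, Slc16a1, Slc16a3 and Ldha windows hold the letters, and those of Slc16a1 and Ldha also hold the palindrome CACGTG. The printed windows of Pdk1, Hk1 and Ldhb hold no ACGTG, which does not show that they lack other forms of HIF or MYC sites. A second Hk1 window at chr10:62340372-62340671, minus strand, does hold ACGTG. Over all windows of a gene, ACGTG on either strand was found in 19 of the 32 genes with an entry (59.4%), against 21.8% of 27025 genes in the table of windows. CACGTG, which contains the shorter motif on both strands, was found in 6 of 32 (18.8%) against 8.1%. A gene with more windows has more room for a match, and the 32 genes had 49 windows against 32851 for the 27025 genes. Per window the shares were 46.9% against 19.6% for ACGTG and 12.2% against 7.2% for CACGTG. Of the genes lower in both backgrounds with an entry, 6 of 8 held ACGTG (Slc2a1, Pfkfb3, Ldha, Slc16a1, Slc16a3, G6pdx), and of those higher in both, 2 of 4 did (Hk1, Pdk2). The median GC content was 60.7% in the windows of the 32 genes and 52.7% in all windows. A match is only a run of letters in a short window and no measure of binding.

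The inhibitor's effect on the pathway was split by step and by isozyme. In B6J, 4 of the 33 genes were called higher and 10 lower (42.4% called), beside 31.1% of all genes tested (14.6% higher and 16.5% lower). In 129, 8 were called higher and 12 lower (60.6% called), beside 35.7% of all genes tested (17.4% higher and 18.2% lower). Each of the 33 had 236 counts or more in every library, whereas the filter kept genes with far fewer (min.count 10). Small changes are called more readily at high counts. Shares matched for level are not given, so the shares here and below do not set the 33 apart. The median log2 fold change of the 33 was -0.12 in B6J and -0.02 in 129, against 0.00 in B6J and -0.01 in 129 over all genes tested. Higher in both backgrounds were Hk1, Pfkp, Ldhb and Pdk2, which is 100% of the B6J calls and 50% of the 129 calls. Lower in both were Slc2a1, Slc2a3, Pfkl, Pfkfb3, Ldha, Slc16a1, Slc16a3, Pdk1 and G6pdx, which is 90.0% of the B6J calls and 75.0% of the 129 calls. The 129 counts were 8 higher and 12 lower without 129 DMSO replicate 1, but 4 genes were higher without 129 DMSO replicate 2, 5 without 129 DMSO replicate 3 and 5 with the fibroblast covariate. For these and later counts from alternative fits, the share of all genes called in the same fit is not given here. A changed count there is thus no result about the 33 as a set. No gene was called in opposite directions, 12 were called in neither background, and 28 of 33 had the same sign. The matching shares of shared calls and signs over all genes tested are not given here, so this agreement does not set the 33 apart. The summed level of the 33 genes was 15129 to 15751 CPM in B6J iMEK libraries, below the 16653 to 19528 CPM of B6J DMSO libraries, of which replicate 1 was the highest. In 129 it was 14460 to 15766 CPM in iMEK libraries and 15223 to 15633 CPM in DMSO libraries, and the groups overlapped. In RNA of whole cultures, fewer cells of a type and less RNA per cell cannot be told apart.

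**Figure D1:**
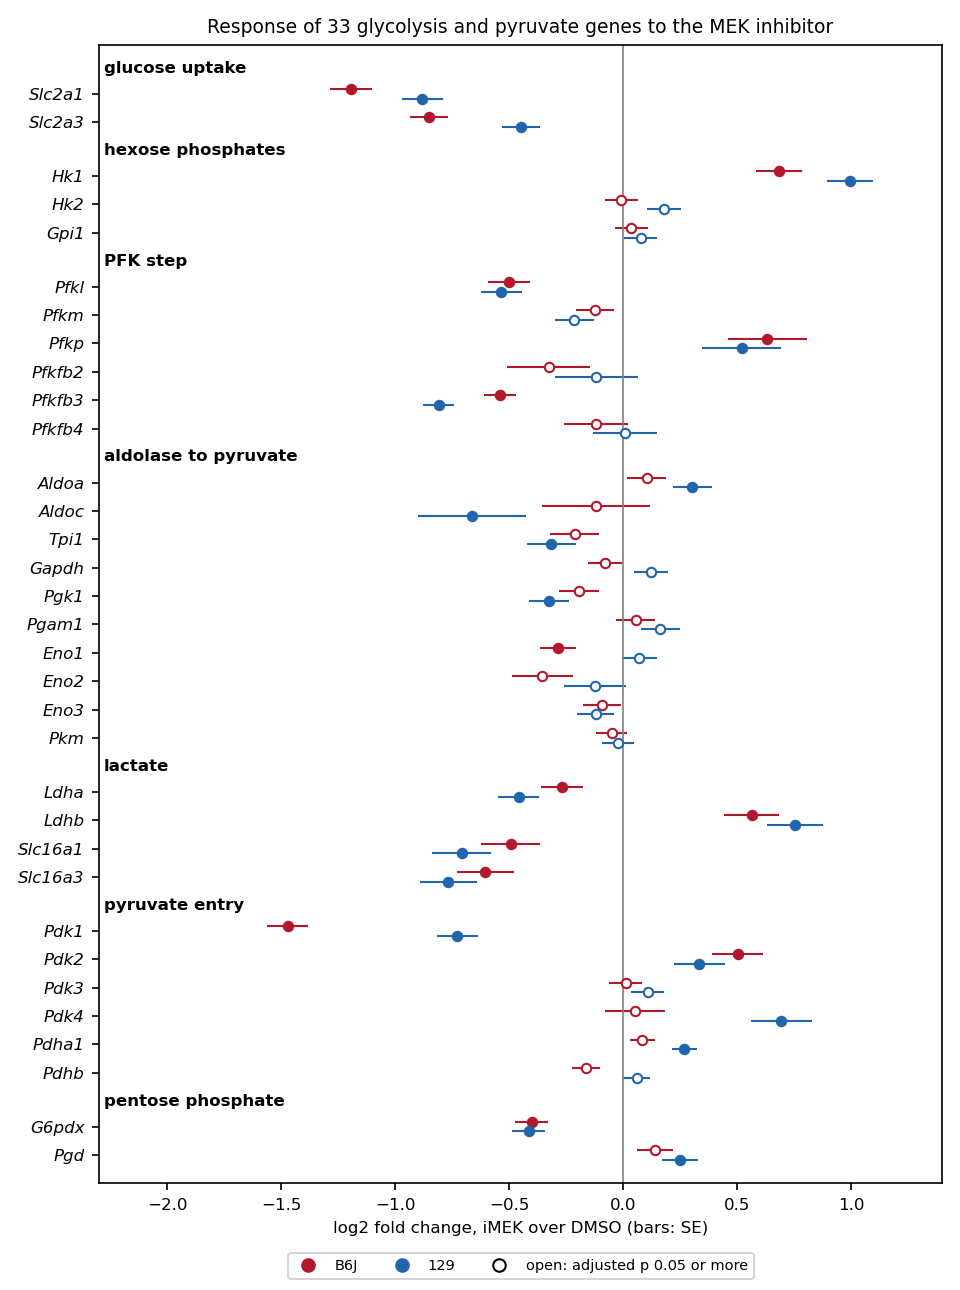
Log2 fold change of each of the 33 genes with the inhibitor over DMSO (x axis, log2; bars are the SE of edgeR's fit) by step of the pathway, in B6J and in 129 cells, 3 libraries per group. Filled points had an adjusted p under 0.05: glucose transporters, lactate transporters and Pdk1 lie left of 0 in both backgrounds, and Hk1, Pfkp, Ldhb and Pdk2 right of it.

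Both glucose transporters fell. Slc2a1 encodes GLUT1, the widely expressed basal glucose transporter. It had 287, 264 and 253 CPM in B6J iMEK libraries, against 676, 572 and 592 CPM in B6J DMSO libraries. In 129 it had 262, 264 and 258 CPM in iMEK libraries, against 419.5, 518 and 506 CPM in DMSO libraries. Every iMEK library was below every DMSO library, and the iMEK libraries of both backgrounds lay close together. The log2 fold change was -1.20 ± 0.09 in B6J (adjusted p = 4.27e-06) and -0.88 ± 0.09 in 129 (adjusted p = 3.05e-05). Slc2a3 encodes GLUT3, a high-affinity transporter best known from neurons. Its level was 1092, 978 and 919.8 CPM in B6J iMEK libraries, against 1989, 1611 and 1800.2 CPM in B6J DMSO libraries. In 129 its level was 889, 879.7 and 891 CPM in iMEK libraries, against 1155, 1209 and 1261 CPM in DMSO libraries. The groups did not overlap in either background, and the highest levels were those of B6J DMSO. The log2 fold change was -0.85 ± 0.08 in B6J (adjusted p = 2.27e-05) and -0.45 ± 0.08 in 129 (adjusted p = 0.00179). With the fibroblast covariate, the 129 change of Slc2a3 was -0.30 and was no longer called (adjusted p = 0.0504), while the other transporter calls held.

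Hexokinase, which phosphorylates glucose, changed in the transcript of its less abundant isozyme. Hk1, the hexokinase found in most tissues, had 99.6, 91.9 and 89.7 CPM in B6J iMEK libraries, against 66.1, 55.2 and 53.6 CPM in B6J DMSO libraries. In 129, Hk1 had 124, 126 and 125 CPM in iMEK libraries, against 71.8, 57.05 and 59.5 CPM in DMSO libraries. All iMEK libraries were higher than all DMSO libraries, and those of 129 were the highest. Hk1 rose by a log2 fold change of 0.69 ± 0.10 in B6J (adjusted p = 0.000365) and 0.99 ± 0.10 in 129 (adjusted p = 2.72e-05). Hk2, the isozyme known to be induced in proliferating cells, was the more abundant per kb, with 56.97 ± 3.04 CPM per kb in B6J iMEK libraries and 57.3 ± 4.85 in B6J DMSO libraries (SD, n = 3). The log2 fold change of Hk2 was -0.01 ± 0.07 in B6J (adjusted p = 0.948) and 0.18 ± 0.07 in 129 (adjusted p = 0.0768). With the replicate number as a block, taken to pair the libraries in 129, the Hk2 change there was called (0.18, adjusted p = 0.0361). It was also called in 5 other alternatives, among them the fit without 129 DMSO replicate 1 (0.22, adjusted p = 0.0397). Gpi1, the isomerase that converts glucose phosphate to fructose phosphate, was not called in either background, with 0.04 in B6J and 0.08 in 129.

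At the phosphofructokinase step the subunits parted. Pfkl, the liver-type subunit, had 249, 232 and 240.0 CPM in B6J iMEK libraries, against 394, 320.1 and 306 CPM in B6J DMSO libraries. In 129, Pfkl had 256, 233 and 227 CPM in iMEK libraries, against 359, 339 and 337 CPM in DMSO libraries. The groups did not overlap, and Pfkl fell, with log2 fold changes of -0.50 ± 0.09 in B6J (adjusted p = 0.00154) and -0.53 ± 0.09 in 129 (adjusted p = 0.00093). Pfkp, the platelet-type subunit, had 223, 171 and 133 CPM in B6J iMEK libraries, against 123, 114 and 103 CPM in B6J DMSO libraries. In 129, Pfkp had 234, 309.7 and 294 CPM in iMEK libraries, against 164, 209.9 and 210.0 CPM in DMSO libraries. Pfkp was higher in every iMEK library than in any DMSO library of its background, with a wider spread between replicates than Pfkl. It rose by 0.63 ± 0.17 in B6J (adjusted p = 0.017) and 0.52 ± 0.17 in 129 (adjusted p = 0.0365). Pfkm, the muscle-type subunit, was not called in either background, with -0.12 in B6J and -0.21 in 129, though its 129 decrease was called in 4 of 24 alternatives, among them the fit without 129 DMSO replicate 1 (-0.28, adjusted p = 0.0226). The Pfkp calls were lost when single libraries were left out, 6 of them in 129 (129 iMEK replicates 2 and 3, each 129 DMSO replicate and B6J DMSO replicate 2) and in B6J 2 of them (iMEK replicate 1 and DMSO replicate 3), with adjusted p values up to 0.102 in 129 and 0.0686 in B6J. With the fibroblast covariate its changes were 0.99 in B6J and 1.01 in 129, and both were called. Pfkp shares 748 exonic bases with Pitrm1 on the opposite strand, and the strand setting of the counting is not given in the sources used here.

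The PFKFB enzymes make and remove the sugar bisphosphate that activates phosphofructokinase. Pfkfb3, the isozyme with the strongest net synthesis, had 29.3, 30.3 and 30.7 CPM in B6J iMEK libraries, against 45.6, 41.99 and 43.6 CPM in B6J DMSO libraries. In 129, Pfkfb3 had 30.01, 30.7 and 33.4 CPM in iMEK libraries, against 56.9, 55.8 and 52.4 CPM in DMSO libraries. All iMEK libraries lay below all DMSO libraries. Pfkfb3 fell in both, with log2 fold changes of -0.54 ± 0.07 in B6J (adjusted p = 0.000146) and -0.81 ± 0.07 in 129 (adjusted p = 8.12e-06). Pfkfb2 and Pfkfb4, other members of this enzyme family, were near 6.56 and 4.09 CPM in 129 DMSO libraries and were not called in either background.

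From aldolase to pyruvate kinase, 0 of 10 genes were called higher and 1 lower in B6J, and 1 higher and 3 lower in 129, beside 31.1% of all genes tested called in B6J and 35.7% in 129. Per kb, Gapdh, Pkm and Aldoa were the highest of the 33 genes in every group, and Gapdh stood at 651 ± 11.3 CPM per kb in B6J iMEK libraries and 688 ± 58.5 in B6J DMSO libraries. In 129, Gapdh stood at 709 ± 56.6 CPM per kb in iMEK libraries and 652 ± 22.8 in DMSO libraries (SD, n = 3 each). Gapdh, the dehydrogenase that makes NADH, Pgam1, a mutase, and Pkm, pyruvate kinase, were not called in either background, and their log2 fold changes lay between -0.08 and 0.16. Aldoa, the main aldolase, rose in 129 by 0.30 ± 0.09 (adjusted p = 0.0177) and had 0.10 ± 0.09 in B6J (adjusted p = 0.4). Tpi1, the triose isomerase, fell in 129 (-0.32 ± 0.11, adjusted p = 0.0404) and had -0.21 ± 0.11 in B6J (adjusted p = 0.163). Pgk1, the kinase of the first ATP-yielding step, fell in 129 (-0.33 ± 0.09, adjusted p = 0.014) and had -0.20 ± 0.09 in B6J (adjusted p = 0.117). Eno1, the widely expressed enolase, fell in B6J (-0.29 ± 0.08, adjusted p = 0.0161) and had 0.07 ± 0.08 in 129 (adjusted p = 0.497). Of the tissue-specific enolases, Eno3 was not called, and Eno2 had -0.35 ± 0.13 in B6J (adjusted p = 0.0669) and -0.12 in 129. The B6J decrease of Eno2 was called in 5 of 24 alternatives, among them DESeq2, a fit of the B6J groups alone and the fibroblast covariate (-0.51, adjusted p = 0.0207). Aldoc, the brain-type aldolase, fell in 129 at the edge of the threshold (-0.66 ± 0.24, adjusted p = 0.0487). None of these genes was called by the interaction term. Of the calls in this stretch, the 129 decrease of Pgk1 held in all 24 alternatives, whereas those of Aldoa, Tpi1, Aldoc and Eno1 each ended in some. With the fibroblast covariate Aldoa was not called (0.27, adjusted p = 0.132), Aldoc was at 0.05 (adjusted p = 0.901) and Tpi1 was called in both backgrounds, at -0.38 in B6J (adjusted p = 0.0257) and -0.53 in 129 (adjusted p = 0.0085). Without 129 DMSO replicate 1 the 129 change of Tpi1 was -0.21 (adjusted p = 0.128). The Aldoc call ended in 8 of the 12 fits that left out a single library, all except those without 129 DMSO replicate 1, B6J iMEK replicate 1 or 3, or B6J DMSO replicate 1. The Tpi1 call also ended without 129 iMEK replicate 2 or 3, 129 DMSO replicate 3 or B6J DMSO replicate 2, and the Aldoa call without 129 DMSO replicate 2. The Eno1 call in B6J ended without iMEK replicate 1 or 2 or DMSO replicate 1 (adjusted p up to 0.0619). Gapdh has 79 annotated near-identical copies, and Pgk1 and Ldha have 4 each, so reads with several positions may have been dropped or split.

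Transcripts of the lactate dehydrogenase subunits and of the lactate transporters changed in both backgrounds. Ldha, whose subunit favours the making of lactate, had 1279, 1209 and 1240.1 CPM in B6J iMEK libraries, against 1668, 1442 and 1382 CPM in B6J DMSO libraries. In 129, Ldha had 1267, 1035 and 1086 CPM in iMEK libraries, against 1656, 1466 and 1535 CPM in DMSO libraries. It was lower in all iMEK libraries, with log2 fold changes of -0.27 ± 0.09 in B6J (adjusted p = 0.0426) and -0.46 ± 0.09 in 129 (adjusted p = 0.00251). Ldhb, whose subunit favours the use of lactate, had 258, 218 and 199.7 CPM in B6J iMEK libraries, against 180.3, 138 and 138 CPM in B6J DMSO libraries. In 129, Ldhb had 315, 267 and 281 CPM in iMEK libraries, against 159.8, 170.2 and 182 CPM in DMSO libraries. It moved the other way, higher in all iMEK libraries, with 0.56 ± 0.12 in B6J (adjusted p = 0.00469) and 0.75 ± 0.12 in 129 (adjusted p = 0.000702). The B6J call of Ldha was close to the threshold and ended in 7 of the 12 fits that left out a single library (adjusted p up to 0.129): without each of the 3 B6J iMEK replicates in turn, without B6J DMSO replicate 1 or 2, and without 129 DMSO replicate 2 or 3.

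The monocarboxylate transporters carry lactate and pyruvate across the cell membrane. Slc16a1 encodes MCT1, which works in both directions, and had 173, 155 and 159 CPM in B6J iMEK libraries, against 244, 214 and 226 CPM in B6J DMSO libraries. In 129, Slc16a1 had 130.4, 131 and 139 CPM in iMEK libraries, against 276, 182 and 196 CPM in DMSO libraries. The groups did not overlap, and 129 DMSO replicate 1 was far above the other libraries of its group. Slc16a1 fell in both, with log2 fold changes of -0.49 ± 0.13 in B6J (adjusted p = 0.0132) and -0.71 ± 0.13 in 129 (adjusted p = 0.00151). The B6J call ended without B6J iMEK replicate 2 (adjusted p = 0.0521). Slc16a3 encodes MCT4, the exporter known from highly glycolytic cells, and had 66.1, 61.8 and 59.1 CPM in B6J iMEK libraries, against 104, 91.4 and 88.9 CPM in B6J DMSO libraries. In 129, Slc16a3 had 83.97, 96.5 and 83.4 CPM in iMEK libraries, against 118, 171 and 159.6 CPM in DMSO libraries. Again no iMEK library reached the DMSO libraries of its background, and here 129 DMSO replicate 1 was the lowest of its group. The log2 fold change was -0.60 ± 0.13 in B6J (adjusted p = 0.00363) and -0.77 ± 0.13 in 129 (adjusted p = 0.000726). With the fibroblast covariate it was -0.33 in B6J and -0.39 in 129, and both were called.

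**Figure D2:**
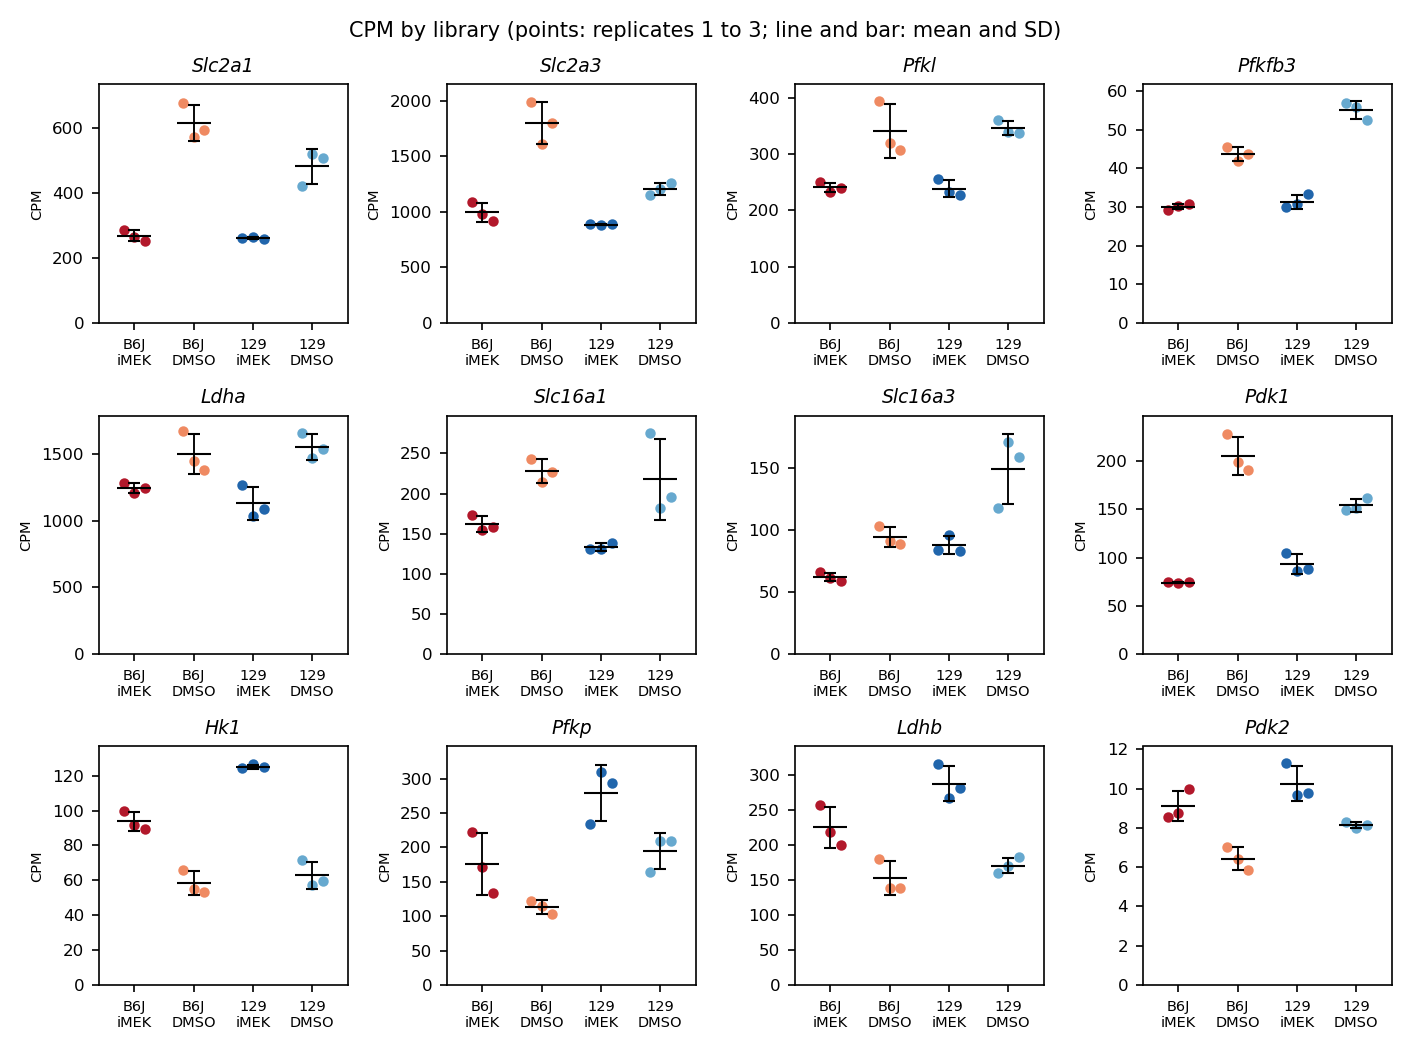
Level in every library (y axis, CPM from 0; points are the 3 replicates of a group, lines and bars the mean and SD) of 12 of the 13 genes that moved in the same direction in both backgrounds. In the upper 8 panels all iMEK libraries lie below the DMSO libraries of the same background, and in the lower 4 (Hk1, Pfkp, Ldhb, Pdk2) they lie above them.

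At the entry of pyruvate into mitochondria the kinases Pdk1 and Pdk2 moved in both backgrounds, in opposite directions. Pdk1, the kinase known as a target of HIF, had 74.3, 73.7 and 74.3 CPM in B6J iMEK libraries, against 228, 199 and 190.4 CPM in B6J DMSO libraries. In 129, Pdk1 had 105, 86.5 and 87.8 CPM in iMEK libraries, against 149.7, 151 and 162 CPM in DMSO libraries. The 3 B6J iMEK libraries were the lowest of all 12 and the 3 B6J DMSO libraries the highest. The log2 fold change was -1.47 ± 0.09 in B6J (adjusted p = 1.05e-06) and -0.73 ± 0.09 in 129 (adjusted p = 9.57e-05). Pdk2, a widely expressed kinase of low level here, had 8.55, 8.78 and 9.99 CPM in B6J iMEK libraries, against 7.02, 6.401 and 5.86 CPM in B6J DMSO libraries. In 129, Pdk2 had 11.3, 9.69 and 9.79 CPM in iMEK libraries, against 8.27, 7.98 and 8.13 CPM in DMSO libraries. Pdk2 was higher in all iMEK libraries, by 0.50 ± 0.11 in B6J (adjusted p = 0.00561) and 0.34 ± 0.11 in 129 (adjusted p = 0.0372). In 129 its call ended with the replicate block (0.33, adjusted p = 0.0648) and with the fibroblast covariate (0.20, adjusted p = 0.344). It also ended without 129 iMEK replicate 1 or 3, 129 DMSO replicate 2 or 3, or B6J DMSO replicate 2.

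Pdk4, the kinase known to rise in fasting, had 9.85, 11.03 and 9.07 CPM in B6J iMEK libraries, against 10.6, 9.49 and 8.78 CPM in B6J DMSO libraries, and the groups overlapped. In 129, Pdk4 had 9.98, 8.09 and 10.1 CPM in iMEK libraries, against 5.19, 5.84 and 6.35 CPM in DMSO libraries, and the groups did not overlap. Pdk4 rose in 129 (0.69 ± 0.13, adjusted p = 0.00204) and had 0.05 ± 0.13 in B6J (adjusted p = 0.799). Its 129 iMEK libraries were near the B6J libraries of both treatments. Pdk3, a kinase whose gene lies on the X chromosome, was not called in either background. Pdha1, which encodes the subunit that these kinases phosphorylate, rose in 129 (0.27 ± 0.06, adjusted p = 0.00321) and had 0.08 ± 0.06 in B6J (adjusted p = 0.289). Pdhb, the partner subunit, was not called (-0.16 in B6J and 0.06 in 129). Pdha1 shares 603 exonic bases with Map3k15 on the opposite strand.

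In the oxidative pentose phosphate pathway, which draws glucose phosphate away from glycolysis to make NADPH, the transcript of the entry enzyme fell. G6pdx, glucose phosphate dehydrogenase, had 84.1, 85.7 and 91.6 CPM in B6J iMEK libraries, against 127, 109.7 and 109 CPM in B6J DMSO libraries. In 129, G6pdx had 76.3, 72.04 and 74.3 CPM in iMEK libraries, against 103, 94.4 and 99.7 CPM in DMSO libraries. The groups did not overlap in either background, and the changes were of nearly the same size, -0.40 ± 0.07 in B6J (adjusted p = 0.0016) and -0.41 ± 0.07 in 129 (adjusted p = 0.00118). Pgd, the second dehydrogenase of this branch, rose in 129 (0.25 ± 0.08, adjusted p = 0.0279) and had 0.14 ± 0.08 in B6J (adjusted p = 0.209). The Pgd call ended with the fibroblast covariate (0.11, adjusted p = 0.435) and without 129 iMEK replicate 1 or 129 DMSO replicate 2 or 3. G6pdx shares 418 exonic bases with Ikbkg on the opposite strand.

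At the hexokinase, phosphofructokinase, lactate dehydrogenase and pyruvate dehydrogenase kinase steps, isozyme shares did not overlap between treatments within a background. This was not particular to these steps or to a single isozyme. The shares of Slc2a1, Pfkl and Eno1 did not overlap either. That of Eno1 within Eno1, Eno2 and Eno3 was higher with the inhibitor in 129 and lower in B6J. This sum leaves out Eno1b, which averaged 118 ± 10.8 CPM per kb in 129 iMEK libraries and 114 ± 7.78 in 129 DMSO libraries. Eno1 averaged 235 ± 19.4 and 224 ± 9.41 CPM per kb there. The shift in 129 is therefore shown only for the share without Eno1b. These shares are sums of CPM per kb within a step, are given as mean ± SD of 3 libraries, and are a description of the levels above with no test of their own. Hk1 made up 16.2 ± 0.0377% of the sum of Hk1 and Hk2 in B6J iMEK libraries and 10.6 ± 0.297% in B6J DMSO libraries. In 129 its share was 19.8 ± 0.516% in iMEK libraries and 12.3 ± 0.782% in DMSO libraries, and Hk2 was the larger part in every library. Other hexokinase genes are left out of this sum. Among them Hkdc1 had 33.7 CPM in 129 DMSO replicate 1 and 1.15 CPM or less in every other library. Pfkp made up 19.4 ± 3.73% of the 3 phosphofructokinase subunits in B6J iMEK libraries and 10.7 ± 0.604% in B6J DMSO libraries. In 129 its share was 30.2 ± 4.11% in iMEK libraries and 18.03 ± 2.203% in DMSO libraries, and Pfkl was the largest part in every library. Ldhb made up 27.6 ± 2.23% of the 2 lactate dehydrogenase subunits in B6J iMEK libraries and 17.6 ± 0.885% in B6J DMSO libraries. In 129 its share was 34.99 ± 0.5004% in iMEK libraries and 18.9 ± 1.705% in DMSO libraries, with no overlap. Pdk1 made up 30.8 ± 0.221% of the 4 kinases in B6J iMEK libraries and 56.5 ± 1.11% in B6J DMSO libraries. In 129 its share was 34.2 ± 2.32% in iMEK libraries and 49.8 ± 0.427% in DMSO libraries. Per kb, Pdk3 was on average above Pdk1 in both iMEK groups and below it in both DMSO groups. Slc2a1 was 35.7 ± 0.518% of its sum with Slc2a3 in B6J iMEK libraries and 41.3 ± 0.924% in B6J DMSO libraries, and 37.9 ± 0.397% in 129 iMEK libraries and 45.1 ± 2.06% in 129 DMSO libraries.

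**Figure D3:**
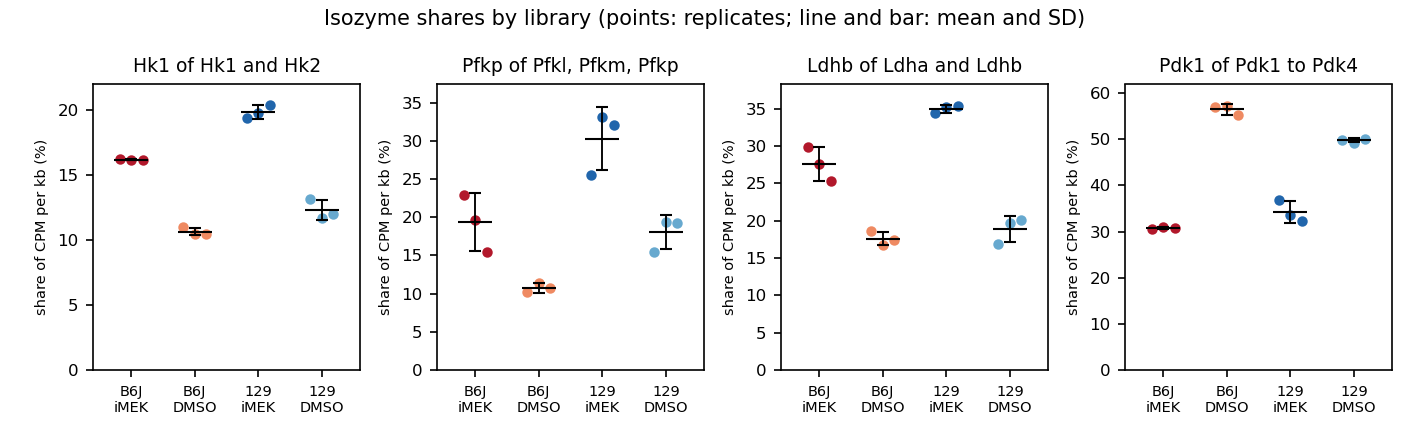
Share of an isozyme in its step (y axis, percent of the summed CPM per kb, from 0; points are libraries, lines and bars the mean and SD of 3) in the 4 groups. The iMEK libraries lie above the DMSO libraries of the same background for Hk1, Pfkp and Ldhb, and below them for Pdk1, whose share was 30.8% in B6J iMEK libraries and 56.5% in B6J DMSO libraries.

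The responses of the backgrounds differed for Pdk1. By the interaction term (B6J response minus 129 response) 1 of the 33 genes was called, with 0 higher and 1 lower (3.03%), beside 1.48% of all genes tested (0.710% higher and 0.770% lower). Its term was -0.75 ± 0.12 on the log2 scale, a larger decrease in B6J (adjusted p = 0.0167). At an unadjusted p under 0.05 there were 8 of the 33, 1 higher and 7 lower. The share of all genes at that threshold is not given here, so this count does not set the 33 apart. At an adjusted p under 0.05, DESeq2 called 0 higher and 3 lower and limma-voom 0 higher and 1 lower. Pdk1 kept its sign in all 23 alternatives but was not called without 129 DMSO replicate 2 or without B6J iMEK replicate 2 (adjusted p up to 0.054). Slc2a3 (-0.41, adjusted p = 0.136) and Pdk4 (-0.64, adjusted p = 0.136) were called with DESeq2, and with the fibroblast covariate Slc2a3 (-0.44, adjusted p = 0.0323) and Slc2a1 (-0.38, adjusted p = 0.0348, against -0.32 and adjusted p = 0.317 without it). For the other genes called in a single background, a difference between the backgrounds' responses was not detected, which does not show that the responses were alike.

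Without the inhibitor the backgrounds differed at several steps. In DMSO 10 of the 33 genes were higher and 3 lower in B6J than in 129 (39.4% called), beside 20.9% of all genes tested (10.4% higher and 10.5% lower). Without 129 DMSO replicate 1 these were 12 and 4, with Slc16a1 (0.28, adjusted p = 0.0246) and G6pdx (0.25, adjusted p = 0.0451) added to those higher and Aldoc (-0.72, adjusted p = 0.0269) to those lower. Pdk2 was called lower in B6J with the fibroblast covariate (-0.38, adjusted p = 0.0192, against -0.34 and adjusted p = 0.0542 without it). Log2 differences here are B6J over 129. Both glucose transporters were higher in B6J: Slc2a3 averaged 1800.3 ± 189 CPM in B6J DMSO libraries and 1208 ± 52.7 CPM in 129 DMSO libraries (0.57 ± 0.08, adjusted p = 0.000608). For Slc2a1 the difference was 0.35 ± 0.09 (adjusted p = 0.0179), and its call ended without B6J DMSO replicate 1 and in a fit of the DMSO groups alone (adjusted p up to 0.0743). Gpi1 (0.38), Pfkm (0.47), Eno1 (0.52), Pkm (0.33), Pdhb (0.28) and Pgd (0.31) were also higher in B6J. The kinases Pdk1, with 206 ± 19.6 CPM in B6J and 154 ± 6.598 CPM in 129 (0.42 ± 0.09, adjusted p = 0.00612), and Pdk4 (0.73 ± 0.13, adjusted p = 0.00248) were higher too. Lower in B6J were Pfkp, with 113 ± 9.898 CPM in B6J and 195 ± 26.6 CPM in 129 (-0.78 ± 0.17, adjusted p = 0.00839), Slc16a3 (-0.66 ± 0.13, adjusted p = 0.00322) and Pfkfb3 (-0.33 ± 0.07, adjusted p = 0.00568). The phosphofructokinase subunits thus differed in opposite directions, with Pfkm at 65.6 ± 6.73 CPM in B6J and 47.5 ± 3.76 CPM in 129 (adjusted p = 0.00249). Besides Slc2a1, the call of Pgd ended in some alternatives (a fit of the DMSO groups alone, and without 129 DMSO replicate 2 or 3).

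With the inhibitor, 8 of the 33 genes were called between backgrounds. Of these, 4 were higher and 4 lower in B6J (24.2% called), beside 18.4% of all genes tested (8.90% higher and 9.47% lower), and the lower count was 2 without 129 iMEK replicate 2 or without B6J iMEK replicate 2. Gpi1 (0.34 ± 0.07, adjusted p = 0.00661), Pfkm (0.56 ± 0.09, adjusted p = 0.000841) and Pkm (0.30 ± 0.07, adjusted p = 0.00914) were higher in B6J in iMEK as in DMSO. Pfkp (-0.67 ± 0.17, adjusted p = 0.0194) and Slc16a3 (-0.50 ± 0.13, adjusted p = 0.0165) were lower in B6J in both treatments. Hk1 was lower in B6J (-0.42 ± 0.10, adjusted p = 0.013), with 93.7 ± 5.21 CPM in B6J iMEK libraries and 125 ± 1.16 CPM in 129 iMEK libraries. Pdk1 changed sides: it was lower in B6J with the inhibitor (-0.33 ± 0.09, adjusted p = 0.0221) and higher in B6J in DMSO. G6pdx was higher in B6J at the edge of the threshold (0.23 ± 0.07, adjusted p = 0.0487), and its call ended in 12 of 24 alternatives, among them all single-library fits except those without 129 DMSO replicate 1, B6J iMEK replicate 1 or B6J DMSO replicate 1. Slc2a1 had 268 ± 17.4 CPM in B6J iMEK libraries and 261 ± 2.76 CPM in 129 iMEK libraries (difference 0.04 ± 0.09, adjusted p = 0.859), and the groups overlapped. The Pdk1 call ended without B6J iMEK replicate 1 or 2, the Pfkp call without B6J iMEK replicate 2 or 129 iMEK replicate 2 or 3, and the Slc16a3 call without 129 iMEK replicate 2 (adjusted p up to 0.0519 for Pdk1, 0.0613 for Pfkp and 0.0565 for Slc16a3). Without 129 DMSO replicate 1, Slc16a1 (0.28, adjusted p = 0.0116) and Pgd (0.20, adjusted p = 0.0471) were called higher too. Pgd was also called higher (0.20, adjusted p = 0.0446), and Ldhb lower (-0.36, adjusted p = 0.0417), with the fibroblast covariate. Without both 129 libraries of replicate 1, 7 genes were higher in B6J, with Eno1, Slc16a1 and Pgd added. The builds named in the submitters' processing notes, mm10 and GRCm38, are C57BL/6J assemblies, and the effect of 129 sequence differences on these counts was not tested.

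**Figure D4:**
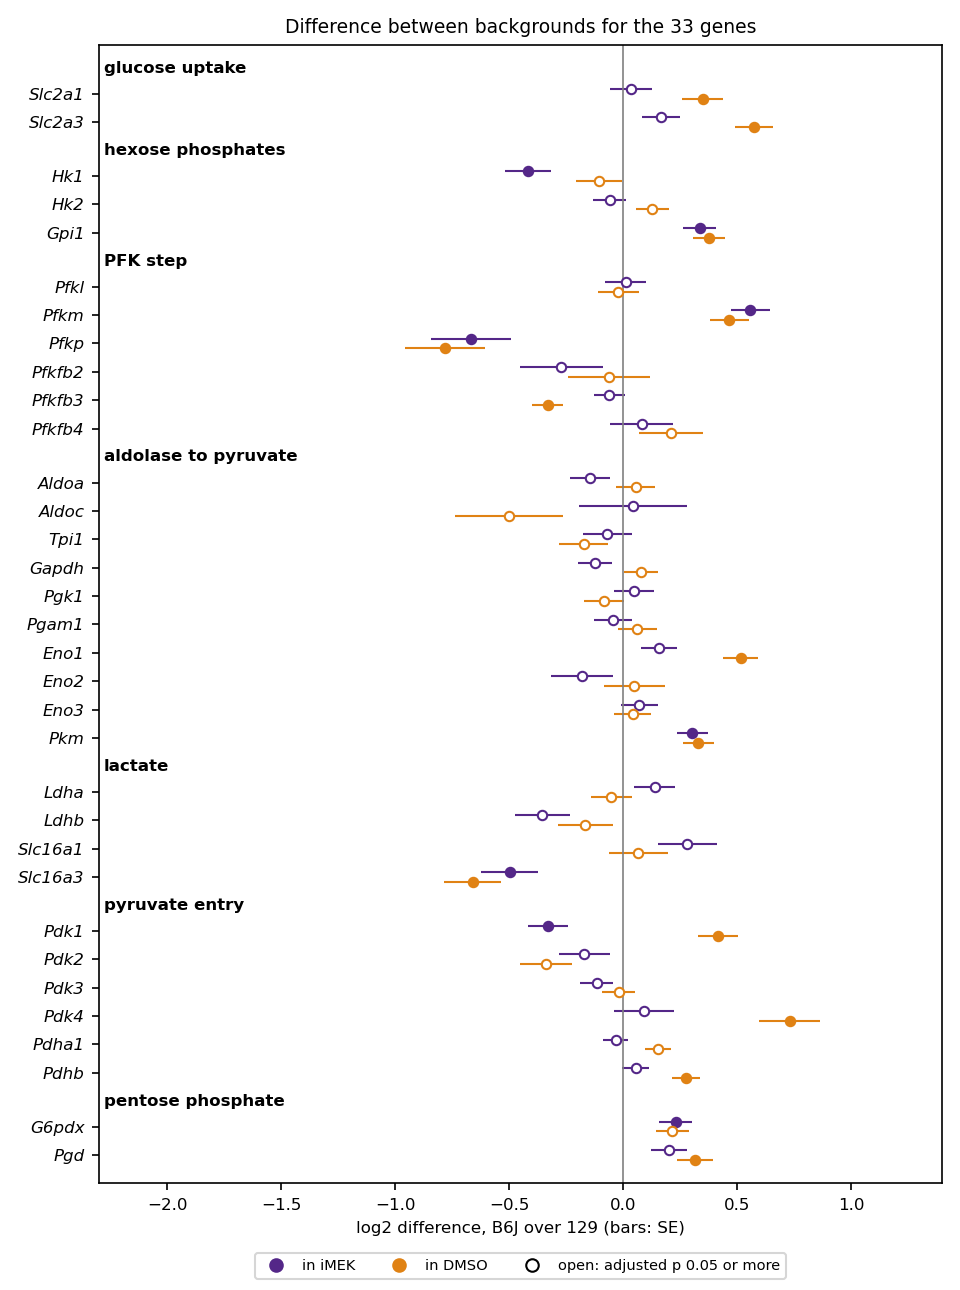
Log2 difference between B6J and 129 for each of the 33 genes (x axis, log2, B6J over 129; bars are the SE of edgeR's fit), with the inhibitor and in DMSO, 3 libraries per group. Filled points had an adjusted p under 0.05: Gpi1, Pfkm and Pkm lie right of 0 and Pfkp and Slc16a3 left of 0 in both treatments, and Pdk1 lies on opposite sides.

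The difference of Eno1 between backgrounds was smaller when the counts of a near-identical copy were added. Eno1 has 3 annotated copies with a match at 95% identity or more. The longest match, of a copy not named here, covers 1736 bases. Of these copies only 1, Eno1b, annotated as a separate gene, is in the count table. Its counts gave 7.07, 8.41 and 9.02 CPM in B6J iMEK libraries, against 241, 221 and 201 CPM in 129 iMEK libraries. In DMSO it had 6.51, 7.11 and 7.23 CPM in B6J libraries, against 198, 221 and 225 CPM in 129 libraries. Eno1b was thus far lower in B6J in every library, by -4.76 ± 0.12 in iMEK (adjusted p = 7.88e-10) and -4.95 ± 0.12 in DMSO (adjusted p = 7.84e-10). It made up 0.574 ± 0.0613% of the summed counts of both genes in B6J iMEK libraries and 14.9 ± 0.511% in 129 iMEK libraries. Eno1 alone had 1891, 1631 and 1647 CPM in B6J DMSO libraries, against 1147, 1237 and 1231 CPM in 129 DMSO libraries, with no overlap and a difference of 0.52 ± 0.08 (adjusted p = 0.00075). With both genes' counts summed, an alternative chosen after these values were seen, the level was 1730.1 ± 145 CPM in B6J DMSO libraries and 1419.6 ± 65.1 CPM in 129 DMSO libraries (SD, n = 3 each), a difference of 0.28 ± 0.08 that was still called (adjusted p = 0.0234). In iMEK the summed levels were 1422 ± 52.5 CPM in B6J and 1488 ± 123 CPM in 129 (difference -0.07, adjusted p = 0.656), where Eno1 alone had 0.16 (adjusted p = 0.201). Whether the copy's counts are its own transcripts or reads of Eno1 cannot be told apart in these counts.

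**Figure D5:**
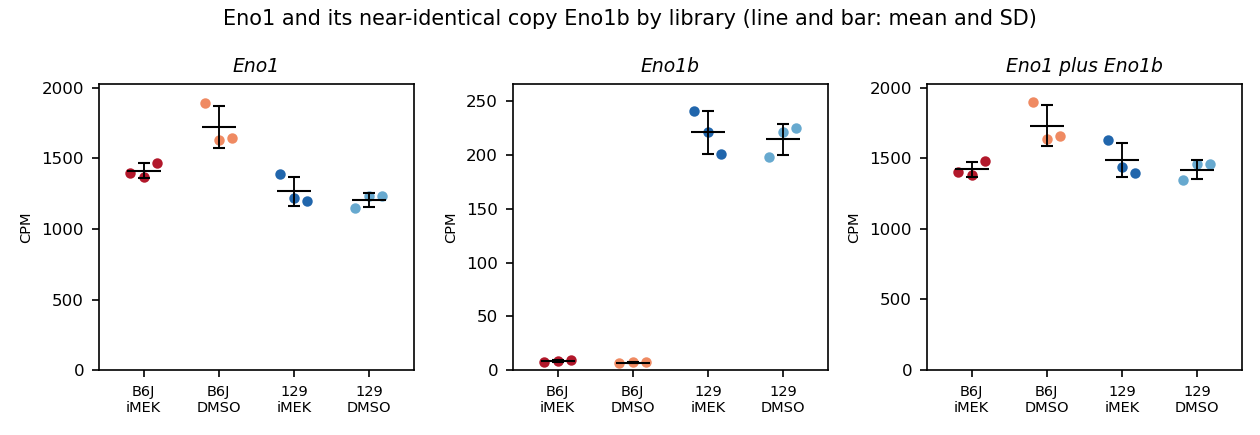
Level of Eno1, of its copy Eno1b and of their sum in every library (y axis, CPM from 0; points are replicates, lines and bars the mean and SD of 3). Eno1b is near 0 in all B6J libraries and at 198 CPM or more in all 129 libraries.

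Other genes around the pathway were taken from lists by function, whose counts stand beside 31.1% of all genes tested called in B6J and 35.7% in 129. Of 25 other glycolysis and gluconeogenesis genes tested, 5 were higher and 2 lower with the inhibitor in B6J, and 5 higher and 4 lower in 129 (median 0.14 in B6J and 0.04 in 129). The shares called, 28.0% in B6J and 36.0% in 129, were near those of all genes. Tigar, which removes the bisphosphate that activates phosphofructokinase, rose in both backgrounds (0.72 in B6J, adjusted p = 4.61e-05, and 0.67 in 129, adjusted p = 7.88e-05). Pcx, pyruvate carboxylase, which feeds pyruvate into the TCA cycle, rose as well (0.50 in B6J, adjusted p = 0.00102, and 0.61 in 129, adjusted p = 0.00023). Pfkfb1, a further enzyme of the Pfkfb3 family, fell (-0.50 in B6J, adjusted p = 0.00227, and -0.42 in 129, adjusted p = 0.00574). Of 15 other sugar and monocarboxylate transporter genes, 3 were higher and 5 lower in B6J (53.3% called), and 5 higher and 2 lower in 129 (46.7%), and with the fibroblast covariate 2 higher and 3 lower in B6J and 3 higher and 3 lower in 129. The share of all genes called with the covariate is not given here. Slc5a1, a sodium-driven glucose transporter, averaged 16.5 ± 0.613 CPM in B6J iMEK libraries and 3.17 ± 0.755 CPM in B6J DMSO libraries, and 13.8 ± 3.14 CPM in 129 iMEK libraries and 1.86 ± 0.218 CPM in 129 DMSO libraries. It thus rose where Slc2a1 and Slc2a3 fell (2.38 in B6J, adjusted p = 7.52e-06, and 2.89 in 129, adjusted p = 2.27e-06). Emb, embigin, a membrane partner of monocarboxylate transporters, fell (-1.06 in B6J, adjusted p = 1.74e-06, and -1.67 in 129, adjusted p = 1.24e-07), as Slc16a1 and Slc16a3 did.

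Among 9 other genes of pyruvate entry and the dehydrogenase complex, 4 were higher and 1 lower in B6J (55.6% called), and 2 higher and 2 lower in 129 (44.4%), and with the fibroblast covariate 3 higher and 0 lower in B6J and 4 higher and 0 lower in 129. Here too the counts with the covariate have no share of all genes beside them. Mpc1, a subunit of the mitochondrial pyruvate carrier, rose (0.55 in B6J, adjusted p = 0.0107, and 0.66 in 129, adjusted p = 0.00332), at a level of 3.64 CPM in B6J iMEK libraries and 2.49 CPM in B6J DMSO libraries. In the rest of the pentose phosphate pathway 0 of 11 genes were higher and 1 lower in B6J (9.09% called), and 1 higher and 1 lower in 129 (18.2%), below the shares of all genes. At an unadjusted p under 0.05 there were 5 of these 11 in each background, and the share of all genes at that threshold is not given here. The gene lower in both was Prps2, which makes the phosphoribosyl donor of nucleotide synthesis (-0.61 in B6J, adjusted p = 0.00102, and -0.39 in 129, adjusted p = 0.0123). Its 129 call ended with the fibroblast covariate and without 129 DMSO replicate 3. Of 17 TCA cycle genes, 1 was higher and 4 lower in B6J, and 3 higher and 2 lower in 129, which is 29.4% called in each and no more than among all genes. Idh2, the mitochondrial NADP-dependent isocitrate dehydrogenase, rose in both backgrounds (1.02 in B6J, adjusted p = 0.000199, and 0.69 in 129, adjusted p = 0.0027). Dlst, a subunit of the oxoglutarate dehydrogenase complex, fell in both (-0.38 in B6J, adjusted p = 0.00141, and -0.40 in 129, adjusted p = 0.00101).

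Known regulators of these genes moved in both directions. Of 18 HIF targets outside glycolysis, 2 were higher and 5 lower in B6J, and 1 higher and 7 lower in 129 (median -0.19 in B6J and -0.51 in 129), 38.9% called in B6J and 44.4% in 129 beside 31.1% and 35.7% of all genes. Their summed level was 921 to 971 CPM in B6J iMEK libraries and 910.29 to 962 CPM in B6J DMSO libraries, and 973 to 1094 CPM in 129 iMEK libraries against 947, 953 and, in replicate 1, 1818 CPM in 129 DMSO libraries. The summed level, in which the most abundant genes weigh most, was not lower with the inhibitor in B6J, nor in 129 without that library. In the fit without it, 4 of the 18 were higher and 6 lower in B6J, and 4 higher and 5 lower in 129. The share of all genes called in that fit is not given here, and a change of HIF activity was not tested. Bhlhe40, a transcriptional repressor, fell with Pdk1 and Slc2a1 (-1.54 in B6J, adjusted p = 1.15e-05, and -1.34 in 129, adjusted p = 2.82e-05), whereas Kdm3a, a histone demethylase, rose (0.94 in B6J, adjusted p = 5.57e-06, and 0.86 in 129, adjusted p = 9.13e-06). Egln3, a prolyl hydroxylase of HIF, fell in both, and both calls ended with the fibroblast covariate (-0.65, adjusted p = 0.0553, in B6J and -0.36, adjusted p = 0.366, in 129). Hif1a itself was not called (-0.13 in B6J and -0.12 in 129). Of 22 regulators of glycolytic genes, 4 were higher and 5 lower in B6J (40.9% called), and 6 higher and 6 lower in 129 (54.5%), where 3 were higher without 129 DMSO replicate 2. Myc averaged 26.2 ± 5.67 CPM in B6J iMEK libraries and 50.1 ± 3.86 CPM in B6J DMSO libraries (-0.94, adjusted p = 0.000306), and 38.9 ± 3.19 CPM in 129 iMEK libraries and 52.1 ± 1.01 CPM in 129 DMSO libraries (-0.42, adjusted p = 0.0293). The Myc call in 129 ended in 5 of the 12 fits that left out a single library (129 iMEK replicate 2 or 3, 129 DMSO replicate 2 or 3, or B6J iMEK replicate 2). Mycn, its family member, was not called (0.19 in B6J and 0.01 in 129). Lin28b (-1.41 in B6J, adjusted p = 0.000419, and -1.86 in 129, adjusted p = 6.41e-05) and Lin28a (-0.61 in B6J, adjusted p = 3.03e-05, and -0.35 in 129, adjusted p = 0.00135), RNA-binding proteins that block let-7 maturation, fell. Mlxip, a glucose-sensing transcription factor, fell (-0.38 in B6J, adjusted p = 0.00434, and -0.64 in 129, adjusted p = 0.000133), and Sirt6, a deacetylase known as a repressor of glycolytic genes, rose (0.72 in B6J, adjusted p = 4.61e-05, and 0.56 in 129, adjusted p = 0.000299).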

How the data were processed

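The authors deposited raw read counts, whole numbers for 26742 genes in 12 libraries. Per the labels' protocols, RNA was extracted with Trizol and libraries were made with a stranded mRNA kit (TruSeq). Tools listed in the submitters' processing notes are STAR 2.7.10, HTSeq 0.6.1p1, SAMtools and DESeq, and the builds are mm10 and GRCm38. Annotation, strand setting and the treatment of multi-mapped reads: not given in the sources used here. Groups and replicates follow the sample titles, matched to the table's own header lines.

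Genes were kept with edgeR 4.0.16's filterByExpr (min.count 10, min.total.count 15) in R 4.3.3, which left 16627. After TMM scaling, 1 quasi-likelihood fit (glmQLFit, glmQLFTest) of 4 group means over all 12 libraries gave 5 contrasts: the response in each background, their difference (interaction), and the difference between backgrounds in each treatment. Calls are at a Benjamini-Hochberg adjusted p under 0.05. The SE was derived from the fold change and its F statistic. The procedure was tested on simulated counts.

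Alternatives were DESeq2 1.42.0, limma-voom (limma 3.58.1), RLE scaling, library totals, no filter and a stricter filter (min.count 100), halved counts (70.09 to 73.37% of values from 1 to 20 were even), fits of the compared groups alone, each library left out, both 129 libraries of replicate 1 left out, a replicate block, a fibroblast marker covariate and, added after seeing the data, Eno1 and Eno1b summed. Replicate numbers were taken to pair libraries in 129, where the deviations of same-numbered libraries correlated at 0.442, 0.295 and 0.222. They were not taken to do so in B6J (-0.188, 0.088 and -0.17). In 129, libraries of replicates 2 and 3 with unlike numbers correlated nearly as well, at 0.194 and 0.209. Those of replicate 1 with another number correlated at -0.385 to -0.274. These values thus set replicate 1 apart and do not clearly pair replicates 2 and 3 by number. The pairing comes from the data, not the labels.

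The 33 genes and the other lists were chosen with earlier results of these data known. All 33 may be named; of the other lists, up to 4 called genes per contrast and direction with at least 5 CPM in the higher group, plus treatment checks and direct partners or regulators. Exon lengths and positions come from GENCODE M21 (26656 of the table's identifiers matched), start-site windows from RefSeq (GRCm38.p6); Slc2a3 had no window.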

Additional observations from a re-analysis of the deposited data

Results flagged for a closer look

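Pdk1, the pyruvate dehydrogenase kinase that fell most in B6J, responded differently in the backgrounds by the interaction term (-0.75 on the log2 scale, adjusted p = 0.0167, edgeR). Emb, the partner of monocarboxylate transporters, fell less in B6J than in 129 (interaction 0.61, adjusted p = 0.0129), and without B6J iMEK replicate 2 this was not called (adjusted p = 0.0502). Suclg2, a subunit of a TCA cycle enzyme, differed by -0.59 (adjusted p = 0.0427): it fell in B6J (-0.67, adjusted p = 0.000182) and was not called in 129 (-0.07, adjusted p = 0.547). Mycl, a MYC family gene, had the opposite direction in the backgrounds: it rose in B6J (0.48, adjusted p = 0.0014) and fell in 129 (-0.60, adjusted p = 0.000316), with an interaction of 1.08 (adjusted p = 0.00227). The causes of these differences were not tested.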

How the results depend on the processing

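Of 56 calls among the 33 genes over 5 contrasts, 38 held in every alternative and 18 ended in some: 13 of 20 held for the 129 response, 10 of 14 for the B6J response, 0 of 1 for the interaction, 11 of 13 in DMSO between backgrounds and 4 of 8 in iMEK. Of the 109 without a call, 19 were called in some alternative. The median over all genes moved by less than 0.1 (log2) under every scaling. With the fibroblast covariate, 5 genes were higher in the 129 response instead of 8, 3 were lower in the interaction instead of 1, and Aldoc in 129 was 0.048 instead of negative (adjusted p = 0.901). DESeq2 also called 3 lower in the interaction. Without both 129 libraries of replicate 1, 7 genes were higher in B6J in iMEK instead of 4. Leaving out a single library gave 4 to 9 genes higher in the 129 response, 0 to 1 lower in the interaction and 2 to 5 lower in B6J in iMEK. With the replicate block, 12 genes were lower in the B6J response instead of 10 (Tpi1 and Pgk1 added), where the numbers were not taken to pair the libraries. With the block, 8 were higher and 12 lower in the 129 response, the same counts, with Hk2 in place of Pdk2; of the 56 calls, it ended that of Pdk2 and that of G6pdx in iMEK. The shares of all genes called in these alternatives are not given here, so these shifts do not set the 33 apart. Their causes were not tested. Low-level genes such as Pdk2, Pdk4, Pfkfb2 and Pfkfb4 rest on the fewest counts.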
